A study of Mus musculus with 6 samples.

Results

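The hippocampus of mice carrying an Fto transgene (Fto Tg) was compared with that of wild-type (WT) mice by RNA-seq, across all genes, with 1 library for each genotype. These are 2 of the 6 libraries of the series, taken by their genotype labels. The other 4 come from a pair of experiments on Prrc2a, a protein that binds methylated RNA. In each of these, mice with a floxed Prrc2a allele (f/f) were the controls of f/f mice carrying Nestin-Cre or Olig2-Cre. Both f/f libraries joined the WT library as 3 control libraries, to show how far hippocampal libraries without the transgene differ from one another. All mice were 4 weeks old and of the C57BL/6J background, and tissue from the whole hippocampus was used. The study's methods state that Fto Tg mice were made with a lentivirus carrying the mouse Fto coding sequence under the ubiquitin C promoter, a promoter active in most cell types. The labels do not say whether tissue of several mice was pooled, nor whether more than 1 founder line was used.

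Fto is a dioxygenase that removes methyl groups from adenosines in RNA, among them N6-methyladenosine (m6A), the most common internal mark of messenger RNA. Writer enzymes around Mettl3 and Mettl14 place the mark, mostly in a short motif around the sequence GGAC, and reader proteins that bind it influence how long an mRNA lasts and how it is translated. In the developing brain, m6A has been tied to the formation of neurons and of oligodendrocytes, the cells that wrap axons in myelin. The study asked whether more Fto alters the transcript of Olig2, a transcription factor that oligodendrocyte progenitors need, and with it the oligodendroglial lineage.

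The Olig2 transcript is where that question starts, and its possible marks can be read from the reference. The longest coding transcript of Olig2 (chromosome 16, 91225457 to 91228677, plus strand, GRCm38) held GGACT, the core of the m6A motif followed by T, at 2 places, both in the coding sequence. They are shown with 10 bases on each side, the motif in capitals. Positions are counted from 1 at the first base of the coding sequence.
Olig2 position 3, chr16:91226402-91226406: ctggggccatGGACTcggacgccag
Olig2 position 110, chr16:91226509-91226513: ttcacaggagGGACTgtgtcctcgt
Its neighbour Olig1 (chromosome 16, 91269772 to 91271933, plus strand) held 1 GGACT in the whole transcript and 0 in the coding sequence. These matches describe the sequence only, because methylation was not measured in these libraries.

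The 4 libraries compared here held between 25199896 (WT) and 35482589 (f/f of the Nestin-Cre experiment) counts, with 34888723 in Fto Tg. Mitochondrial transcripts took 7.97% to 8.86% of the counts, and 3 counts corresponded to 0.0860 CPM (counts scaled to a common library total) in Fto Tg and 0.119 in WT. Levels below are CPM and are given in a fixed order: f/f of the Nestin-Cre experiment, f/f of the Olig2-Cre experiment, WT, Fto Tg. With 1 library a side, a read test can compare these libraries only, and not the genotypes. A gene was called when its false discovery rate in the read test was below 0.001 and its ratio between Fto Tg and WT was at least 1.2-fold. It was called beyond the controls when, in addition, Fto Tg lay at least 1.2-fold above the highest or below the lowest of the 3 control libraries.

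Of 18051 genes tested, 2796 (15.5%) were called between Fto Tg and WT. Of these, 1259 (6.97%) were higher and 1537 (8.51%) lower in Fto Tg, but with the scaling factors of edgeR (TMM) the split turned to 1823 higher and 1146 lower. Pairs of control libraries gave shares on both sides of this. The read test called 17.3% of genes between WT and f/f of the Nestin-Cre experiment, 7.2% between WT and f/f of the Olig2-Cre experiment, and 13.1% between both f/f libraries. Fto Tg differed from the f/f libraries at 24.1% and 19.2% of genes. Being beyond the controls was the stricter reading: 1213 genes (6.72%) met it, 529 (2.93%) higher and 684 (3.79%) lower. The shares over all genes to set beside each gene list below are therefore 6.97% higher and 8.51% lower. For genes beyond the controls they are 2.93% and 3.79%. When the spread of the 3 control libraries was used as the error, edgeR's quasi-likelihood test of Fto Tg against the controls called 4 of 17831 genes (0.0224%), all higher, at an adjusted p of 0.05. The 4 genes were Fto, Eno1b, Capn11 and the pseudogene Gm4735. It called 0 lower, while 1755 genes had an unadjusted p under 0.05 and the Wald test of DESeq2 called 122 genes, 98 of them lower. This test assumes that Fto Tg varies like the controls, and it cannot tell the transgene and the experiment apart.

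Fto itself, the targeted gene (chromosome 8, 91313525 to 91668439, plus strand), stood at 152, 147 and 158 CPM in the controls and at 354 CPM in Fto Tg. The controls averaged 152 ± 5.44 CPM (SD, n = 3), and Fto Tg was 2.24-fold above WT (log2 ratio 1.16). The adjusted p was 0.0486 in edgeR's quasi-likelihood test, and it ranged from 7.04e-14 to 0.0459 under the alternatives. Reads from the transgene and from the endogenous gene are counted together. Among 6 tested genes within 300 kb of Fto, 1 was called, the chromatin remodeler Chd9, at 58.7, 64.7, 64.5 and 47.7 CPM.

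Other parts of the m6A machinery differed less. Of 11 writer genes tested, 0 were called in either direction, and their log2 ratios to WT lay between -0.33 and 0.14. In the AlkB family, to which Fto belongs, Alkbh5, the other m6A eraser, stood at 75.5, 77.0, 69.4 and 66.3 CPM and was not called. Alkbh8, which modifies transfer RNA, was called lower and beyond the controls, at 22.1, 21.6, 22.7 and 13.7 CPM. Among 18 reader genes, 3 (16.7%) were called, all lower, against 8.51% of all genes. Of these, 2 (11.1% of the list) were beyond the controls, both from the Prrc2 family. Prrc2c stood at 178, 139, 137 and 76.6 CPM, a 1.79-fold difference from WT, and Prrc2b at 559, 424, 401 and 325 CPM. Prrc2a, the reader of the companion experiments, stood at 434, 389, 351 and 334 CPM and was not called. In edgeR's test against the controls, Prrc2c had an adjusted p of 0.368. It passed without f/f of the Nestin-Cre experiment (0.0395), with no low-count filter (0.0338) and in DESeq2 (8.33e-05).

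In the oligodendrocyte lineage, most calls for progenitor genes were lower and most calls for mature genes higher. Olig2 stood at 38.9, 36.9, 43.2 and 31.5 CPM. Fto Tg was lowest and the gene was called lower than WT (1.37-fold), but only 1.17-fold below the lowest control. Olig1, its close relative in the same lineage, moved the other way, at 138, 129, 146 and 261 CPM, 1.78-fold above WT and equally far above the highest control. The edgeR adjusted p was 0.241 for Olig1 and 0.518 for Olig2. Without WT or without f/f of the Nestin-Cre experiment, Olig1 passed, at adjusted p of 0.0321 and 0.0361, as it did with no low-count filter (0.00495) and in DESeq2 (6.47e-07). The platelet-derived growth factor receptor Pdgfra, which marks progenitors, stood at 75.2, 69.8, 90.0 and 67.9 CPM and was called lower than WT, within 1.2-fold of the lowest control. The transcription factors Sox10 (52.1, 40.2, 45.9 and 50.2 CPM) and Nkx2-2 (5.44, 3.96, 5.12 and 4.30 CPM) were not called. Of 19 progenitor genes tested, 2 were called higher and 6 lower, but only 2 and 1 beyond the controls. These were Olig1 and the matrix protein Matn4 (13.8, 12.1, 13.1 and 17.0 CPM) above, and the matrix glycoprotein Tnr (69.3, 41.6, 44.7 and 27.9 CPM) below.

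Genes of mature, myelinating oligodendrocytes were called higher more often than lower. Of 32 tested, 10 were called higher and 2 lower, 7 and 2 of them beyond the controls, and the median log2 ratio was 0.22, beside -0.01 for all genes. Fto Tg lay above all 3 controls at 20 of the 32, against 29.3% of all genes tested. Cnp, an enzyme of myelin membranes, stood at 545, 527, 592 and 744 CPM, and Mag, an adhesion protein of the inner myelin layer, at 264, 236, 269 and 333 CPM. Myelin basic protein (Mbp) stood at 3507, 3129.9, 3366 and 4118 CPM, called higher but 1.17-fold above the highest control. Cldn11, the tight-junction protein of myelin, stood at 385, 336, 413 and 493 CPM and was not called. The largest rises were in the actin-severing protein Gsn (147, 112, 138 and 198 CPM), the lipid carrier Apod (118, 121, 128 and 171 CPM) and Opalin (39.9, 28.2, 37.3 and 50.3 CPM). Of the 2 lower genes, Enpp2, at 1051, 1016, 789 and 374 CPM, is also a gene of the choroid plexus, and Plekhh1 stood at 42.3, 39.8, 39.4 and 32.6 CPM. With the trends with gene length and GC content removed, the median was 0.11. Genes for myelin lipid synthesis (1 higher, 2 lower of 17) and for cholesterol synthesis (1 higher, 3 lower of 24) were called at shares near those of all genes.

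Among other glia, single genes of reactive astrocytes and of microglia were higher. Gfap, the filament protein of astrocytes, stood at 298, 359, 334 and 500.0 CPM, 1.5-fold above WT. Its edgeR adjusted p was 0.443, between 0.0850 and 0.429 under the other edgeR settings, and the DESeq2 adjusted p was 0.0145. S100b (81.4, 96.4, 88.7 and 123 CPM) and the filament protein Vim (32.9, 40.1, 44.7 and 54.2 CPM) were likewise above all controls and called. Over the whole reactive list, however, 4 of 16 genes (25%) were called higher and 2 (12.5%) lower. The median log2 ratio of 0.01 turned to -0.08 against f/f of the Olig2-Cre experiment and -0.04 with length and GC content adjusted. Of 20 genes of homeostatic astrocytes, 2 (10%) were called higher and 2 (10%) lower, all of them beyond the controls. The glutamate transporter Slc1a2 (3318, 3281, 3164 and 2431 CPM) and the potassium channel Kcnj10 (206, 209, 207 and 162 CPM) were the lower ones. Tight-junction protein Cldn10 and Mlc1 were the higher ones, at 24.4, 28.3, 26.1 and 36.3 CPM and at 129, 139, 134 and 173 CPM. Aqp4 and Aldh1l1 were not called. Of 22 microglial genes, 6 (27.3%) were called higher, against 6.97% of all genes, and 0 lower. Beyond the controls were 4 of them (18.2% of the list), against 2.93% of all genes. The median log2 ratio of the microglial list was 0.20 to WT and 0.09 with length and GC content adjusted. It was 0.33 to f/f of the Nestin-Cre experiment and 0.09 to f/f of the Olig2-Cre experiment. The f/f libraries themselves differed, with f/f of the Olig2-Cre experiment above its Nestin-Cre counterpart at a median of 0.20. Tyrobp, a signalling adaptor, stood at 12.4, 10.96, 10.95 and 16.7 CPM, its partner receptor Trem2 at 8.31, 8.79, 8.21 and 12.4 CPM, and the complement protein C1qa at 30.3, 32.7, 31.2 and 43.3 CPM.

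The choroid plexus, the secretory epithelium in the ventricles that makes cerebrospinal fluid, had the median furthest from 0 of the 22 cell type lists. Of 18 genes tested, 17 were called lower in Fto Tg, and all 17 were beyond the controls. The median log2 ratio to WT was -1.29. Transthyretin (Ttr), the thyroxine carrier of this tissue, stood at 2710.3, 2014, 1529 and 641 CPM, a 2.39-fold difference from WT. Coagulation factor F5, which also serves as a choroid plexus marker, stood at 19.95, 24.2, 17.6 and 4.56 CPM, and the potassium channel Kcnj13 at 2.82, 2.72, 1.87 and 0.430 CPM. Tmem72 differed most, at 20.2, 13.1, 5.36 and 1.15 CPM. For the 17 genes, Fto Tg lay 1.70- to 4.67-fold below the lowest control. The exception was Igfbp2, at 75.1, 67.9, 47.1 and 49.8 CPM. In bulk tissue, fewer cells of a type and less RNA per cell cannot be told apart.

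**Figure D1:**
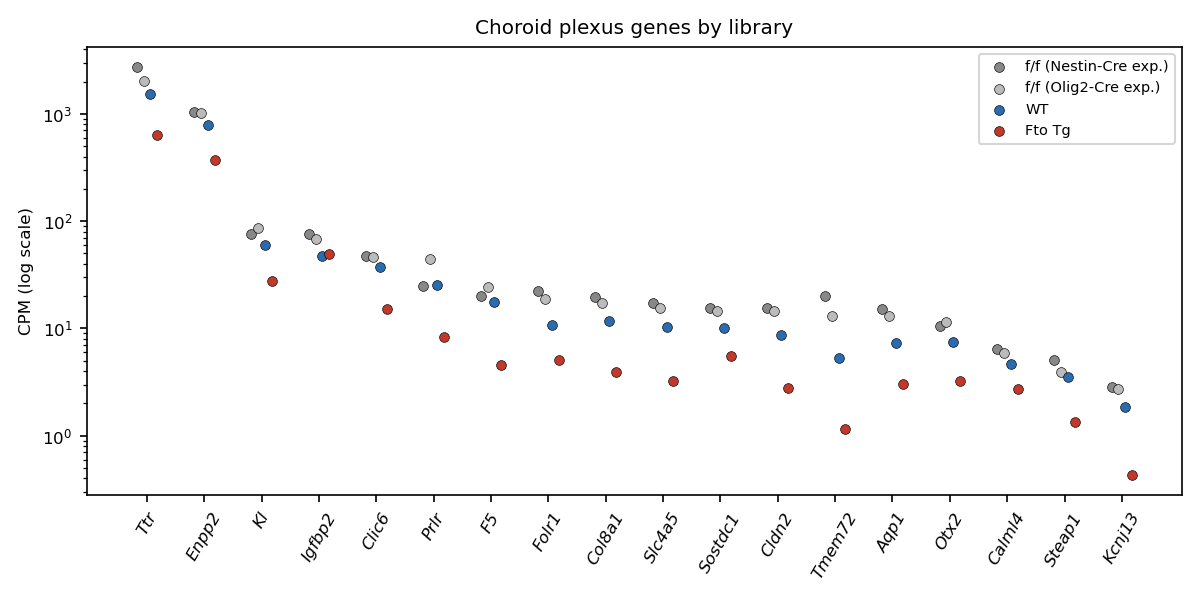
CPM on a log axis of the 18 choroid plexus genes, ordered by their mean in the controls, with 1 point for each of the 3 control libraries and Fto Tg. The Fto Tg point is the lowest for 17 genes and lies among the controls for Igfbp2.

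The control libraries also differed at these genes, since WT was below both f/f libraries, with median log2 ratios of -0.60 and -0.53. Summed over the list, the level was 4155 and 3429 CPM in the f/f libraries, 2586 in WT and 1154 in Fto Tg. In the 2 deletion libraries of the series it was 661 (Nestin-Cre) and 4914 CPM (Olig2-Cre), so the list spans a wider range over the series than between WT and Fto Tg. How much choroid plexus each dissection contained is not given in the sources used here, and its part in the result was not tested. Genes of ependymal cells, which line the same ventricles, were called in 0 of 11 cases, and their summed level was 79.2, 75.7, 74.5 and 81.6 CPM. This sum rests largely on Pltp, at 35.8 to 43.4 CPM in the controls and 39.8 CPM in Fto Tg. It cannot show how much choroid plexus a dissection held. In edgeR's quasi-likelihood test against the controls, 0 of the 18 genes had an adjusted p under 0.05, and the smallest was 0.0974, for F5. With a control left out, 14 genes passed without WT, 10 without f/f of the Olig2-Cre experiment and 4 without its Nestin-Cre counterpart. With no low-count filter 13 passed, and DESeq2 called 14.

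Vessel genes were called higher more often than genes at large. Of 20 endothelial genes, 6 (30%) were called higher, against 6.97% of all genes, and 2 lower, and 3 of the higher ones (15%) were beyond the controls, against 2.93%. Cldn5, the main tight-junction protein of the blood-brain barrier, stood at 24.7, 19.7, 22.3 and 37.7 CPM, and Itm2a at 48.6, 57.4, 56.7 and 77.4 CPM. The 2 endothelial genes called lower were Abcb1a and Slco1a4, and 0 of them were beyond the controls. Of 14 mural cell genes, 3 (21.4%) were called higher and 1 lower, with the contractile proteins Acta2 (7.81, 8.79, 6.63 and 11.1 CPM) and Des (2.31, 1.86, 1.31 and 2.87 CPM) beyond the controls. Of 14 meningeal genes, 2 were called higher, 0 of them beyond the controls, and 0 of 10 blood genes were called.

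**Figure D2:**
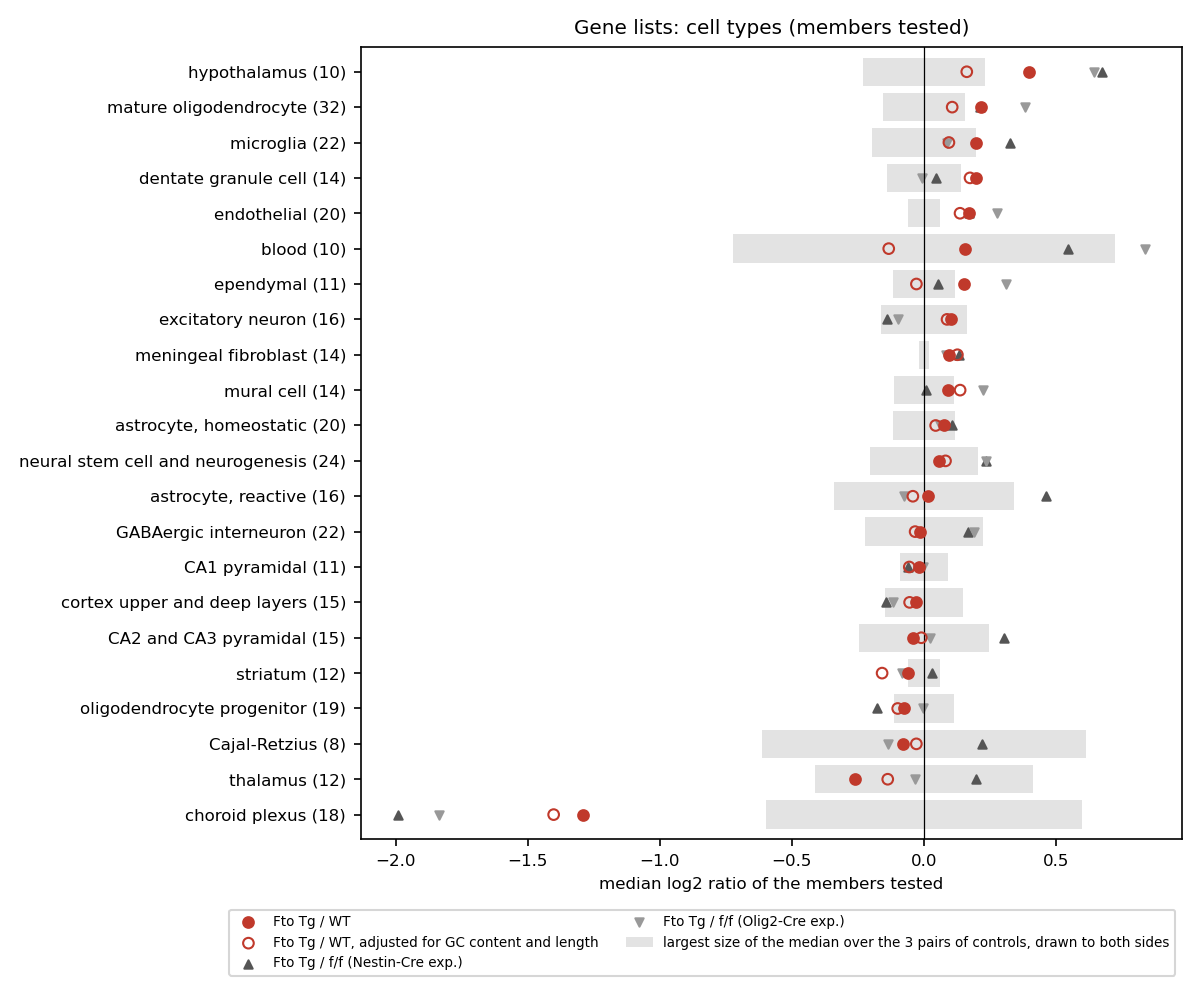
Median log2 ratio of Fto Tg to each control for 22 cell type lists, with the number of genes tested in brackets. Filled red points are ratios to WT, open red points the same after removal of the trends with GC content and length, triangles the ratios to the f/f libraries, and grey bars the largest median seen between any 2 controls. The choroid plexus list lies outside its bar in all 3 ratios and is furthest from 0, at -1.29 against WT. The mature oligodendrocyte, endothelial, meningeal fibroblast and hypothalamus lists also lie outside their bars in all 3 ratios, on the higher side.

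Neuronal marker lists held calls in both directions, with medians near 0. Of 16 excitatory neuron genes, 4 (25%) were called higher and 4 (25%) lower, against 6.97% and 8.51% of all genes, and the median log2 ratio was 0.10 to WT but -0.14 and -0.10 to the f/f libraries. Itpka, a kinase of dendritic spines, stood at 146, 141, 136 and 221 CPM. Of 11 CA1 markers, 4 (36.4%) were called higher and 3 (27.3%) lower. They included Spink8, at 15.1, 14.5, 16.2 and 29.0 CPM, and on the lower side Ndst4 (15.0, 14.7, 15.4 and 9.14 CPM) and Wfs1 (196, 165, 168 and 137 CPM). Of 15 CA2 and CA3 markers, 3 (20%) were called higher and 1 (6.67%) lower, while 9 had a ratio to WT below 1. The median log2 ratio was -0.04. The 2 beyond the controls, both higher, were Pcp4 and Bok. Pcp4, a calmodulin regulator, stood at 11.6, 10.1, 6.55 and 17.0 CPM, and Bok at 37.3, 41.6, 35.4 and 71.4 CPM. Genes of one hippocampal field thus went both ways. Of 22 interneuron genes, 3 (13.6%) were called higher and 4 (18.2%) lower. The higher ones were Pvalb, Calb2 and Sst, with Calb2 and Sst beyond the controls. The lower ones were Reln, Htr3a, Gad2 and Cnr1, with only Htr3a beyond the controls. Somatostatin (Sst) stood at 152, 122, 156 and 189 CPM and was called higher, but its ratio changed sign when adjusted for length and GC content (log2 -0.037). Of 24 genes of neural stem cells and neurogenesis, 5 were called higher and 2 lower, and all 5 were beyond the controls. They included the replication clamp Pcna (30.1, 31.01, 33.1 and 46.0 CPM), the stem cell gene Hopx (24.2, 52.8, 46.0 and 70.6 CPM) and Igfbpl1, which marks newborn granule neurons (5.38, 3.89, 5.44 and 8.86 CPM).

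Ribosomal and energy genes made up the broadest group of higher genes. Of 78 genes for proteins of the cytosolic ribosome, 68 were called higher and 0 lower, all 78 had a ratio above 1, and the median log2 ratio was 0.39. At 33 genes the rise was beyond the controls, and Fto Tg lay above all 3 controls at 58. The median was 0.24 to f/f of the Nestin-Cre experiment and 0.43 to f/f of the Olig2-Cre experiment. The controls differed at these genes as well. WT and f/f of the Olig2-Cre experiment were below f/f of the Nestin-Cre experiment, at medians of -0.21 and -0.22. Rplp1, a protein of the ribosomal stalk, stood at 453, 418, 412 and 693 CPM, and Rps14 of the small subunit at 244, 171, 192 and 307 CPM. Mitochondrial ribosomal proteins followed, with 20 of 46 called higher, 11 of them beyond the controls. Mrps24 stood at 27.9, 26.2, 23.8 and 34.0 CPM. Of 75 nuclear genes of the respiratory chain, 51 were called higher and 0 lower, but only 11 beyond the controls, among them Atp5l of the ATP synthase (122, 113, 122 and 167 CPM) and Ndufb5 of complex I (64.1, 63.3, 62.7 and 86.8 CPM). Their median log2 ratio was 0.33 to WT and 0.08 to f/f of the Nestin-Cre experiment. WT itself was below that f/f library, at a median of -0.30.

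The 13 respiratory chain genes that the mitochondrial genome encodes did not share this rise. Of these, 0 were called higher and 3 lower, with a median log2 ratio of -0.15, which turned to 0.07 against f/f of the Nestin-Cre experiment. mt-Atp8 stood at 48.8, 50.02, 33.5 and 17.8 CPM and mt-Nd5 at 3709, 3575, 3801 and 2612 CPM, both beyond the controls. mt-Co1 stood at 12804, 17231, 16488 and 15572 CPM and was not called.

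Genes of protein turnover and of the defence against oxidants were also higher. Of 31 proteasome genes, 14 were called higher and 0 lower, 10 of them beyond the controls, and Fto Tg was above all controls at 29. The core subunits Psmb3, Psmb4 and Psmb6 stood at 57.5, 51.0, 49.4 and 70.9 CPM, at 121, 99.4, 113 and 161 CPM and at 78.6, 61.9, 71.4 and 97.2 CPM. Of 29 metallothionein and antioxidant genes, 16 were called higher and 0 lower, 9 beyond the controls. They were led by the glutathione transferases Gstm5 (74.1, 82.2, 79.6 and 119 CPM) and Gstp1 (97.7, 99.4, 93.2 and 131 CPM). Of 16 genes of the unfolded protein and integrated stress response, 6 were called higher, 4 of them beyond the controls. Chac1, which breaks down glutathione, stood at 3.35, 2.93, 3.77 and 6.48 CPM, the transcription factor Atf5 at 22.6, 20.7, 17.0 and 28.2 CPM, and asparagine synthetase (Asns) at 68.4, 66.2, 71.8 and 93.5 CPM. Heat shock and chaperone genes were called in 1 of 26 cases. The glycolysis list had 3 of 19 genes higher, of which the triose phosphate isomerase Tpi1 stood at 464, 418, 446 and 576 CPM.

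**Figure D3:**
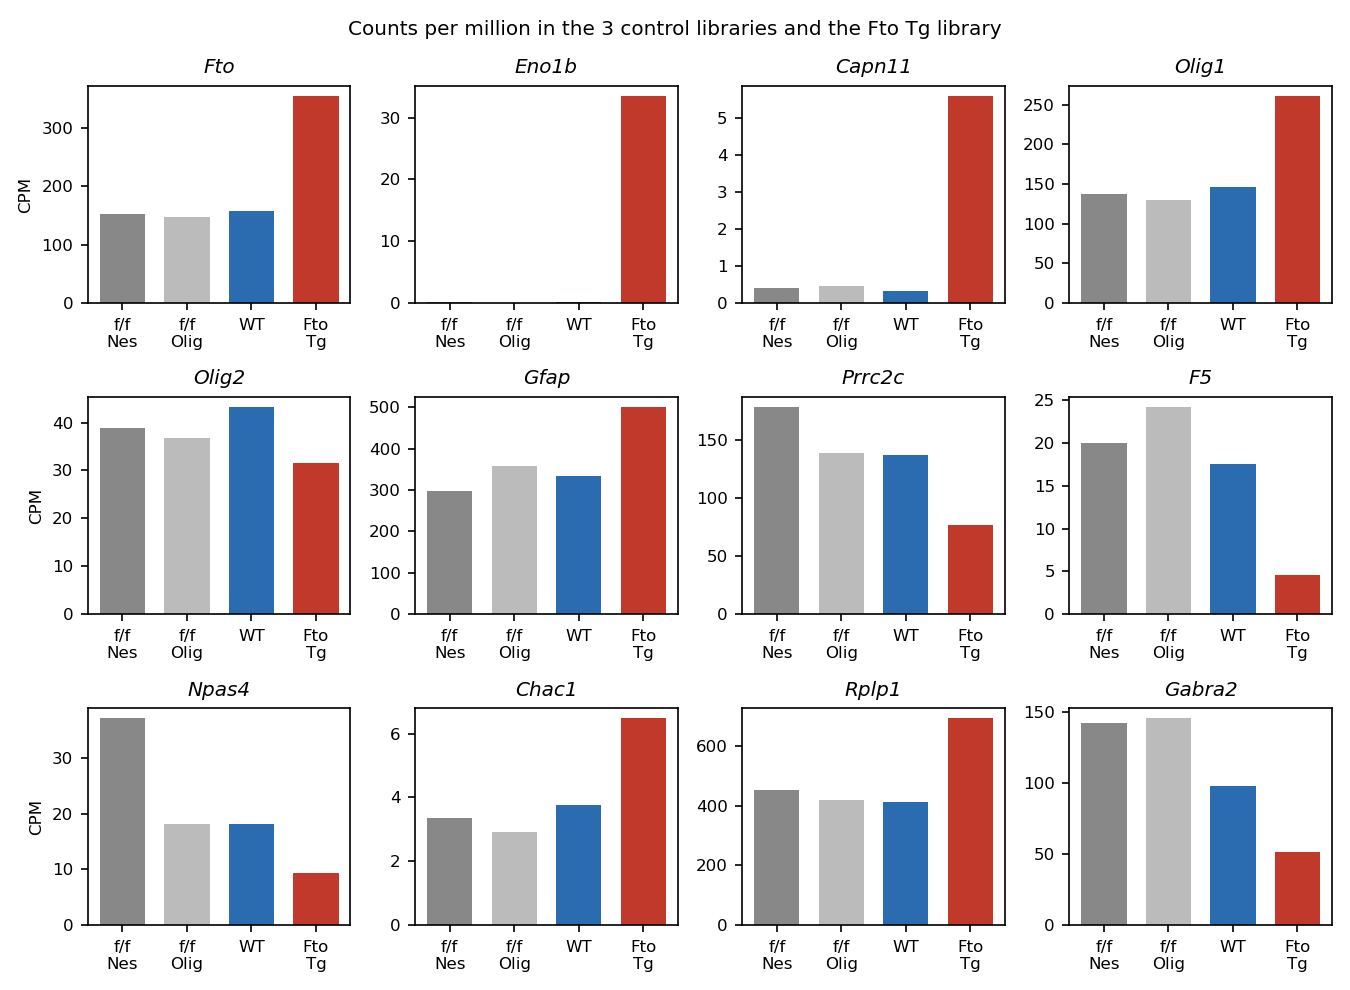
CPM of 12 genes in the 3 control libraries (grey and blue bars) and in Fto Tg (red), each panel with its own axis starting at 0. Fto, Eno1b, Capn11, Olig1, Gfap, Chac1 and Rplp1 are highest in Fto Tg, and Olig2, Prrc2c, F5, Npas4 and Gabra2 lowest.

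Cell adhesion genes were often called lower. Of 34 neurexin and adhesion genes, 16 were called lower and 0 higher, 33 had a ratio below 1, and Fto Tg was below all 3 controls at 26, against 29% of all genes tested. At 7 genes the difference was beyond the controls. Ncam2, an adhesion molecule of axons, stood at 36.6, 37.0, 45.2 and 20.1 CPM and Cntn5, a contactin, at 6.31, 5.37, 6.15 and 3.04 CPM. Of 28 cadherin and protocadherin genes, 11 were called lower and 0 higher, 7 of them beyond the controls, with Pcdh15 at 11.2, 11.8, 14.1 and 6.99 CPM and Pcdh7 at 41.9, 29.7, 34.5 and 19.5 CPM. Of 47 axon guidance genes, 16 (34.0%) were called lower and 2 (4.26%) higher, 5 (10.6%) and 0 of them beyond the controls. The median log2 ratio of this list was -0.11 to WT but turned to 0.03 with length and GC content adjusted. The netrin receptor Dcc stood at 15.5, 12.1, 13.1 and 6.02 CPM, and Plxnd1, a semaphorin receptor, at 51.3, 37.7, 54.8 and 27.4 CPM. Of 41 extracellular matrix genes, 9 were called lower and 2 higher, the collagen Col5a1 (26.7, 18.3, 21.2 and 13.2 CPM) among them.

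Receptor and channel genes were lower in part. Of 14 GABA receptor genes, 5 were called lower and 0 higher, and 2 were beyond the controls. Gabra2 stood at 142, 145, 97.6 and 51.4 CPM, and Gabrb2 at 119, 86.0, 97.3 and 43.6 CPM. Both encode subunits of the GABA-A receptor, the main inhibitory receptor of the brain, and their adjusted p in edgeR's test was 0.368 and 0.305. Gabra2 passed without WT (0.00527), Gabrb2 without f/f of the Nestin-Cre experiment (0.0361) or of the Olig2-Cre experiment (0.0237), and both passed with no low-count filter and in DESeq2. The list's median of -0.14 turned positive against f/f of the Nestin-Cre experiment (0.07) and with length and GC content adjusted (0.03). Of 30 ionotropic glutamate receptor genes and their auxiliary subunits, 9 were called lower and 2 higher, 4 and 1 of them beyond the controls. The NMDA receptor subunit Grin2a stood at 34.9, 53.8, 46.4 and 27.1 CPM and the kainate receptor subunit Grik3 at 80.8, 54.6, 60.4 and 42.2 CPM. The AMPA receptor partner Cnih2 was higher, at 311, 303, 265 and 383 CPM. Of 7 metabotropic glutamate receptor genes, 4 were called lower, 0 of them beyond the controls.

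Of 30 genes for dopamine, serotonin, acetylcholine, noradrenaline, opioid and cannabinoid receptors, 10 were called lower and 0 higher, 6 of them beyond the controls. The serotonin receptors Htr2a and Htr1b stood at 6.59, 4.86, 8.97 and 3.58 CPM and at 4.23, 3.51, 3.37 and 1.83 CPM, and the noradrenaline receptor Adra1a at 8.14, 6.86, 6.55 and 3.75 CPM. Calcium channel genes were called lower in 6 of 15 cases, 3 beyond the controls, with Cacna1e, the R-type channel, at 311, 281, 294 and 184 CPM. Potassium channel genes were called lower in 9 (28.1%) and higher in 1 (3.1%) of 32 cases, 6 of the lower ones beyond the controls. The calcium-activated channels Kcnma1 and Kcnn3 stood at 52.4, 69.7, 76.3 and 36.9 CPM and at 6.34, 4.17, 4.33 and 2.55 CPM. Sodium channel genes were called in 1 of 9 cases.

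At the synapse itself, the called genes were mostly lower. Of 44 genes of vesicles and release, 9 were called lower and 1 higher, 5 and 0 of them beyond the controls. The active zone proteins Pclo and Rims1 stood at 228, 232, 235 and 143 CPM and at 229, 190.4, 225 and 149.7 CPM, and the priming factor Unc13c at 25.2, 21.98, 26.5 and 12.9 CPM. Snap25, a component of the fusion machinery, stood at 1595, 1631, 1595 and 1502 CPM and was not called. Of 31 postsynaptic genes, 10 were called lower and 1 higher, 6 and 0 of them beyond the controls, with Dlg2 at 298, 238, 250.0 and 161 CPM and Homer2 at 138, 156, 126 and 86.5 CPM.

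Among regulators of chromatin, 13 of 45 genes were called lower and 0 higher, 8 of them beyond the controls, and Fto Tg was below all 3 controls at 38. The methyltransferase family member Kmt2e stood at 133, 122, 112 and 80.9 CPM and the acetyltransferase Crebbp at 70.7, 68.4, 52.7 and 39.3 CPM. Of 51 splicing regulators, by contrast, 2 were called, Luc7l2 (323, 299.5, 318 and 235 CPM) and Srrm2 (735, 585, 544 and 429 CPM), both lower and beyond the controls. In insulin, IGF and mTOR signalling, 9 of 34 genes were called lower and 2 higher, 6 and 0 of them beyond the controls. The leptin receptor Lepr, which binds a hormone of energy balance, stood at 7.61, 7.23, 5.95 and 3.12 CPM, and the insulin receptor substrate Irs1 at 20.2, 13.7, 13.1 and 8.54 CPM. Prkaa2, a catalytic subunit of the energy sensor AMPK, stood at 47.1, 47.0, 53.1 and 35.1 CPM.

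**Figure D4:**
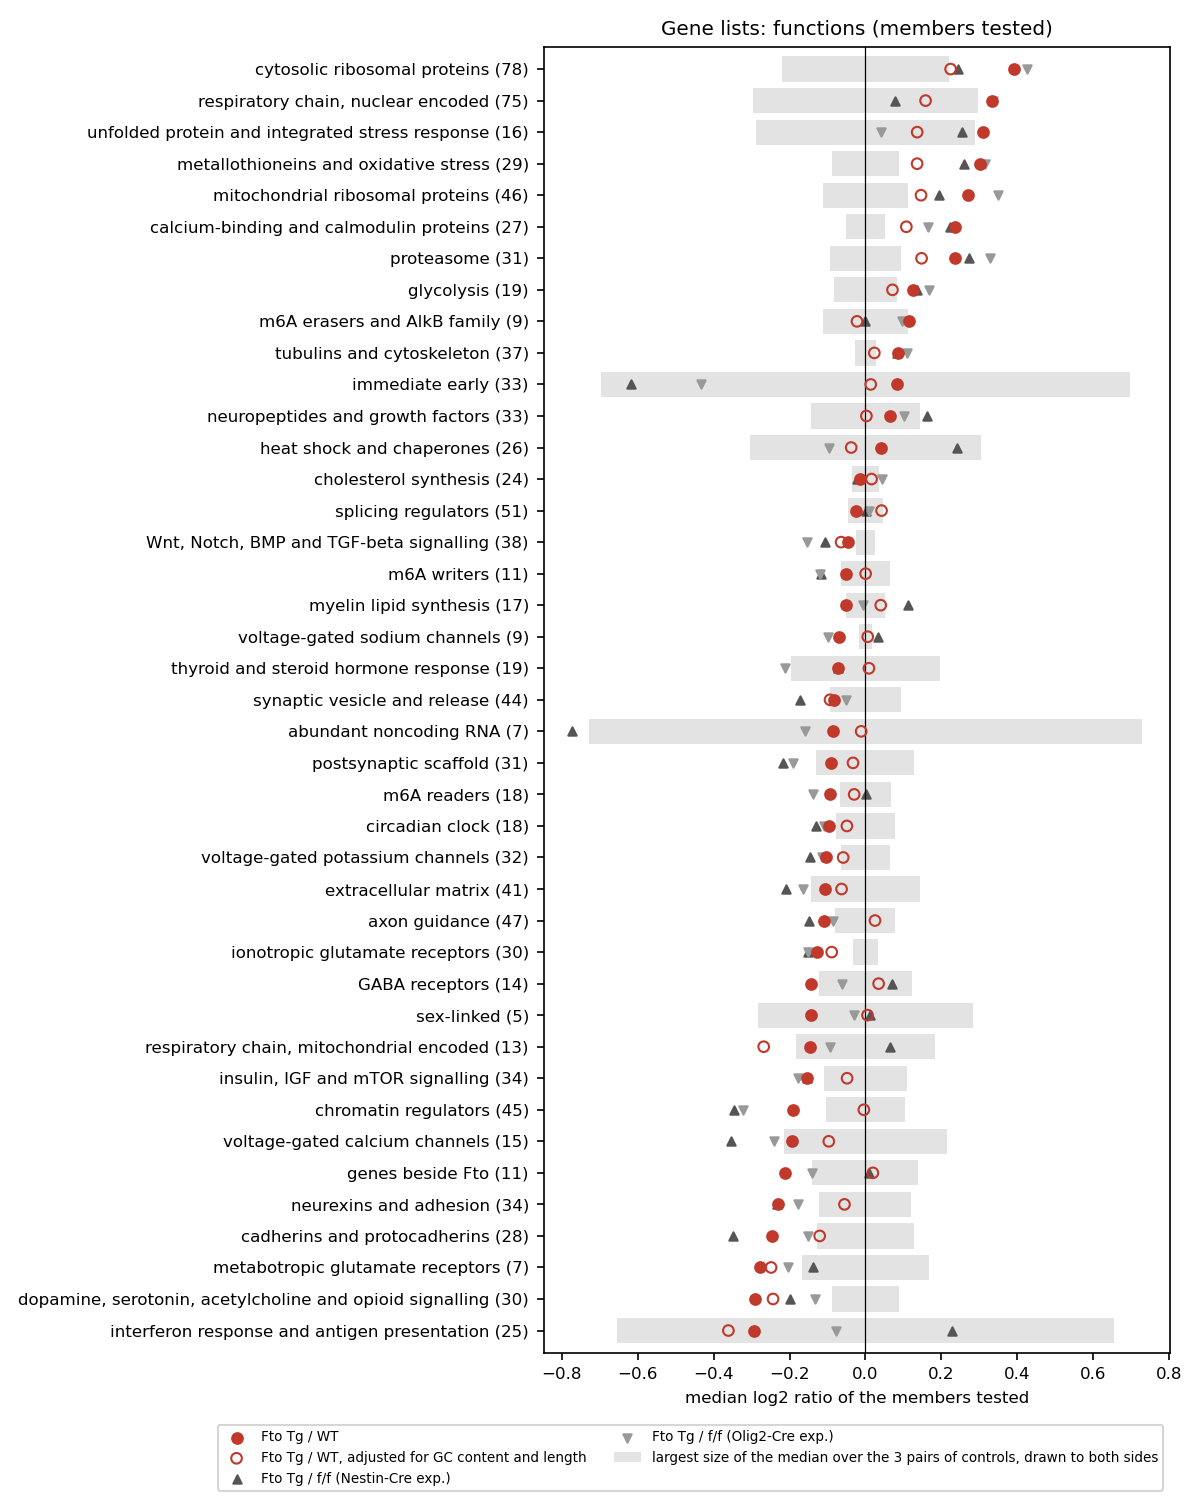
Median log2 ratio of Fto Tg to each control for 41 functional lists, with the number of genes tested in brackets and the same symbols as in the plot of cell types. Ribosomal, proteasome and antioxidant lists lie above 0 in each comparison and adhesion lists below 0, while the interferon and immediate early lists change side with the control.

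Other lists depended on which control was used. Of 25 interferon and antigen presentation genes, 11 were called lower than WT and 0 higher, but 0 were beyond the controls. The summed level was 258, 332, 378 and 312 CPM, highest in WT, and the median log2 ratio of -0.29 to WT turned to 0.23 against f/f of the Nestin-Cre experiment. Immediate early genes, which neurons switch on with activity, had a median log2 ratio of 0.08 to WT but -0.62 and -0.43 to the f/f libraries, and WT was below these f/f libraries too (-0.70 and -0.46). Of 33, 3 were called higher and 4 lower, and 3 of the lower ones were beyond the controls. Npas4 stood at 37.1, 18.2, 18.1 and 9.37 CPM, Nr4a2 at 88.9, 90.1, 70.3 and 49.8 CPM and Egr3 at 38.5, 37.7, 29.4 and 22.7 CPM. Egr1, at 222, 209, 101 and 106 CPM, separated WT and Fto Tg from both f/f libraries.

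The single genes with the largest rises were led by an enolase relative. Eno1b, a copy of the glycolytic enolase gene Eno1, stood at 0.113, 0.0689, 0.198 and 33.4 CPM (edgeR adjusted p = 0.000156), 5 counts in WT against 1167 in Fto Tg. Gm4735, an enolase pseudogene (chromosome 2, 80837141 to 80838442, plus strand), stood at 1.04, 0.448, 0.595 and 10.8 CPM (edgeR adjusted p = 0.0486). Eno1 itself stood at 469, 528, 518 and 516 CPM and was not called. The coding sequences of Eno1 and Eno1b are 1302 bases long and differ at 8 of them (99.4% identity), and 94.9% of the 31-base words of Gm4735 also occur in Eno1b. Reads shared between such copies cannot be assigned with certainty, so the division of counts among these 3 genes is uncertain. Capn11, a calpain protease expressed mainly in testis (chromosome 17, 45630204 to 45659325, minus strand), stood at 0.395, 0.448, 0.317 and 5.59 CPM (edgeR adjusted p = 0.0479). Of 13 tested genes within 300 kb of Capn11, 2 were called higher, and the transporter Slc35b2, chosen after its values were seen, was beyond the controls, at 26.3, 24.2, 25.1 and 34.7 CPM.

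The next largest rises were at low levels. The olfactory marker protein Omp stood at 0.479, 2.27, 0.238 and 3.38 CPM, the cytochrome Cyp2g1 at 0 (which allows up to 0.0845 CPM), 1.79, 0.238 and 2.41 CPM, and Stoml3 at 0.479, 1.76, 0.873 and 2.78 CPM. These genes are known from the nasal olfactory mucosa, and among the controls all 3 were highest in f/f of the Olig2-Cre experiment. Of 23 tested genes on a list of this tissue, which was drawn up after these values were seen, 7 were called higher and 1 lower. The 3 genes that prompted the list are among these 7, so the count is a description only. Klk6, a protease of oligodendrocytes, stood at 0.592, 0.792, 0.317 and 2.18 CPM, Samd11 at 1.72, 0.999, 1.23 and 3.50 CPM and Gm5617 at 2.54, 2.58, 1.83 and 5.04 CPM. Gm1821, a ubiquitin pseudogene, stood at 4.37, 22.05, 12.2 and 47.9 CPM, and 85.8% of its 31-base words also occur in Ubb.

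Outside the choroid plexus list, the largest falls were also in genes of low level. Igfn1 stood at 8.74, 3.96, 9.80 and 2.09 CPM, Plcxd3 at 4.85, 3.96, 5.95 and 1.61 CPM, Oca2 at 2.20, 2.17, 2.30 and 0.631 CPM, and Prr32 at 4.88, 4.69, 3.81 and 1.09 CPM. Oca2, a melanosomal membrane protein, and Prr32 were tight among the controls, and Fto Tg lay 3.44- and 3.50-fold below the lowest of them. Igfn1 ranged more than 2-fold among the controls.

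Ratios also followed gene length. Over 13121 protein-coding genes with at least 100 counts in the pair, the rank correlation across genes between exon length and the log2 ratio of Fto Tg was -0.51 to WT, -0.34 to f/f of the Nestin-Cre experiment and -0.49 to f/f of the Olig2-Cre experiment. Between controls it was 0.09, -0.03 and 0.12. With GC content in place of length, the rank correlation for Fto Tg changed sign with the control. It was 0.37 to WT, -0.14 to f/f of the Nestin-Cre experiment and 0.14 to f/f of the Olig2-Cre experiment. The 3 pairs of controls also followed GC content, at -0.54, -0.27 and -0.38. In the shortest of 10 length groups (exons of 198 to 1942 bases) the median log2 ratio to WT was 0.25, and 31.5% of genes were called higher and 2.13% lower. In the longest group (10264 to 123179 bases) the median was -0.23, and 0.762% were called higher and 38.9% lower. Genes are not independent replicates, and all 3 ratios share the Fto Tg library, so these correlations carry no p.

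**Figure D5:**
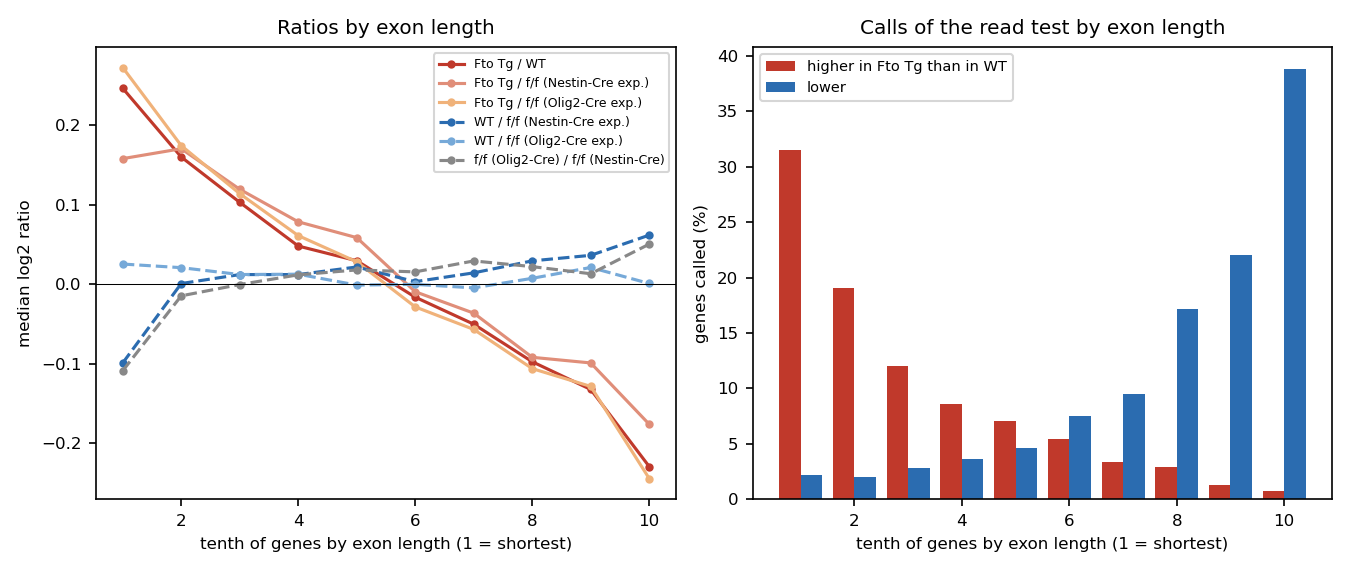
Left, median log2 ratio in 10 groups of genes ordered by exon length, for Fto Tg against each control (solid lines) and for the 3 pairs of controls (dashed lines). Right, the percentage of genes called higher (red) or lower (blue) in Fto Tg than in WT in each group. Ratios of Fto Tg fall from 0.25 to -0.23 against WT, while those between WT and f/f of the Olig2-Cre experiment stay between -0.0047 and 0.025. The other pairs of controls rise from the shortest to the longest group. To f/f of the Nestin-Cre experiment, the ratio of WT goes from -0.10 to 0.06. That of f/f of the Olig2-Cre experiment goes from -0.11 to 0.05.

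The lists above differ in length in the same way. The median exon length was 1776 bases for cytosolic ribosomal proteins, 1756 for nuclear respiratory chain genes and 2808 for proteasome genes, but 10243 for the adhesion list, 9531 for cadherins and 13786 for chromatin regulators, beside 3936 over all genes. After the trends with length and GC content were removed, the median log2 ratio was 0.22 for cytosolic ribosomal proteins, 0.16 for the nuclear respiratory chain and 0.15 for the proteasome. It was -0.06 for adhesion, -0.12 for cadherins and 0.00 for chromatin regulators. For the choroid plexus list it was -1.40, larger than before. The part of gene length or of RNA quality in these differences was not tested, and with 1 library a side neither can be told apart from the transgene. The number of GGACT sites in a transcript rises with its length. Within the longest group, the median log2 ratio was -0.23 for 1218 genes with 3 or more sites and -0.18 for 94 genes with 0 to 2, and within the shortest group 0.23 for 277 and 0.25 for 1036 genes. The shares of genes called lower in the longest group were 40.0% and 24.5%. Groups 4 and 5 by length went the other way in their medians. These were 0.050 and 0.032 with 3 or more sites, and 0.040 and 0.029 with 0 to 2. Exons of the longest group span 10264 to 123179 bases, so length can still differ between genes with many and few sites. The part of the sites was not tested.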

How the data were processed

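RNA was extracted from mouse hippocampus, mRNA was enriched on oligo-dT beads and TruSeq libraries were sequenced on an Illumina instrument. According to the methods, the authors trimmed reads with Cutadapt and Trimmomatic, aligned them to mm10 with TopHat (TopHat2 2.0.9 in the submitters' processing notes), kept uniquely mapped reads and counted them per Ensembl gene with HTSeq 0.6 in union mode, without strand. The deposited values are raw read counts for 37315 gene identifiers per library. The methods describe paired-end reads, while the labels leave single or paired open. Reads of near-identical copies were lost or divided, and genes overlapping on opposite strands were not separated.

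Symbols, exon lengths and GC content came from GENCODE M21 on GRCm38, the assembly of mm10 (symbols for 95.0% of identifiers, length and GC content for 98.3% of genes tested). Reference transcripts from the same source gave the Olig2 sequences. CPM used library totals. Counts of 3 were taken as the floor, and floors and intervals cover counting error only.

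The read test was MARS of DEGseq, the study's choice, programmed from its formulas (0.5 added to counts, at least 10 counts over the pair, Benjamini-Hochberg FDR below 0.001, fold at least 1.2). The second test was edgeR 4.0.16 (quasi-likelihood F test, TMM, filterByExpr, FDR 0.05) of Fto Tg against 3 controls, in R 4.3.3, and p-values then measure only the spread between these libraries, which come from 3 experiments. DESeq2 1.42.0 was an alternative. Python 3.11.15, numpy 2.4.6, pandas 2.3.3, scipy 1.17.1, statsmodels 0.14.6 and matplotlib 3.10.9 were used. Trends with GC content and exon length were removed by lowess (fraction 0.3). Both tests were run on simulated counts with known changes before use.

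The 63 gene lists (1512 of 1534 entries tested) and the named genes were chosen with earlier results of these data known. Named were genes of the oligodendroglial and astrocyte lineages that the study names, the Prrc2 family, the 12 largest rises and falls beyond the controls among protein-coding genes with at least 2 CPM and the 3 largest of other biotypes, the genes edgeR called, and in each list the most abundant member and up to 3 rises and falls. Both Cre deletion libraries were used only for summed list levels.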

Additional observations from a re-analysis of the deposited data

How the results depend on the processing

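No paired analysis was possible because each group had 1 library. Each alternative changed one choice, except that DESeq2 was run without the low-count filter of edgeR, so its count differs by test, scaling and filter together. For genes called between Fto Tg and WT (2796), the count was 1577 with ratios adjusted for GC content and length, 103 with edgeR's exact test on the dispersion of the controls, and 4439 with f/f of the Nestin-Cre experiment in place of WT. For genes beyond the controls (1213), it was 748 with the adjusted ratios, 79 with the exact test, 2368 with any margin and 215 with a 1.5-fold margin. For edgeR's test against the 3 controls (4 genes), it was 46 with no low-count filter, 122 with the Wald test of DESeq2, and 20 to 51 when a control was left out (27 without f/f of the Nestin-Cre experiment, 20 without f/f of the Olig2-Cre experiment, 51 without WT). The other counts of these 3 results stayed within 1.5 times. Of the calls, 45.0% were higher with library totals and 61.4% with TMM, 22.3% in the exact test.

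Log2 ratios of 185 called named genes kept their sign under TMM and DESeq2 factors. The adjusted ratio reversed Sst (-0.037). With f/f of the Nestin-Cre experiment in place of WT, Zic1 (0.25), Tox3 (0.18), Cnr1 (0.038), Penk (0.15), Ndnf (0.28), mt-Nd4 (0.065) and Gm6969 (0.024) reversed. With f/f of the Olig2-Cre experiment, Gm6768 (-0.025), Slc2a1 (-0.0064), Cbln1 (0.32), Zic1 (0.053) and Pcna-ps2 (1.32) reversed. The cause was not tested. Of genes with a few counts, depth limits the ratio, and of the others the lack of replicates.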

Other observations

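Neuropeptide genes were little changed as a group, with 4 of 33 (12.1%) called higher and 2 (6.06%) lower, against 6.97% and 8.51% of all genes. Pdyn, the dynorphin precursor, stood at 7.58, 8.99, 6.67 and 12.2 CPM, beyond the controls. Cort, a relative of somatostatin, stood at 3.38, 2.41, 3.49 and 5.88 CPM, also beyond the controls. The order of libraries is f/f of the Nestin-Cre experiment, f/f of the Olig2-Cre experiment, WT and Fto Tg. Of 37 cytoskeleton genes, 7 were called higher and 5 lower. Tmsb4x, an actin-binding peptide, stood at 955, 1004, 1009 and 1524 CPM and Stmn3, a regulator of microtubules, at 344, 338, 343 and 467 CPM. The linker proteins Macf1 and Dst stood at 299, 347, 331 and 247 CPM and at 372, 366, 369.7 and 287 CPM, and their log2 ratios to WT of -0.42 and -0.37 became -0.06 and -0.01 after the trends with length and GC content were removed.

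In Wnt, Notch, BMP and TGF-beta signalling, 5 of 38 genes (13.2%) were called lower, against 8.51% of all genes, and 1 higher. Those beyond the controls included the Wnt receptor Fzd3 (7.13, 13.5, 16.5 and 5.02 CPM) and the BMP receptor Bmpr2 (16.1, 34.2, 32.6 and 12.9 CPM), both of which also varied among the controls. Clock genes were called lower in 5 of 18 cases (27.8%), and Per2 (39.5, 47.4, 34.5 and 28.1 CPM) was the 1 beyond the controls.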
